A study of Mus musculus with 14 samples.

Results

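Ribosome biogenesis genes encode the factors that transcribe, modify, cut and fold ribosomal RNA (rRNA) and assemble it into ribosomal subunits. The set described here has 51 genes of the 54532 in the deposited count tables. It was chosen by gene symbol in the liver table, with rows joined to the fibroblast table by Ensembl ID, and all 51 were present in both tables and passed the filter on low counts in both. By step, 7 genes act in rRNA transcription, 9 in small nucleolar ribonucleoproteins (snoRNPs), 16 in assembly of the small subunit, 17 in assembly of the large subunit, and 2, *Ncl* and *Npm1*, in several steps.

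RNA was sequenced from senescent and control samples of 2 mouse systems in which telomeres lose TRF2, the shelterin protein encoded by *Terf2* (*Trf2*). Senescent iMEFs were 3 cultures of Trf2F/F;Rosa-CreER fibroblasts collected 7 days after 4-hydroxytamoxifen (4HT) was added to activate CreER, and control iMEFs were 3 cultures of the same genotype given vehicle. All iMEFs carry SV40 large T antigen, which immortalized them, and the effects of 4HT, of active Cre and of the deletion cannot be told apart here, as all 4HT-treated libraries lost *Terf2* RNA. Senescent livers came from 4 Trf2F/F;Rosa-mTmG mice 6 weeks after AAV8-Tbg-Cre, and control livers from 4 Rosa-mTmG mice that received the same virus and are labelled without the floxed *Trf2* allele. Tbg is a hepatocyte promoter, so Cre acts in hepatocytes, and the whole liver also holds cells that keep *Trf2*. The sources used here give no age for the mice.

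Ribosomes are made in the nucleolus. RNA polymerase I transcribes a long precursor rRNA, snoRNPs guide its methylation and pseudouridylation, and assembly factors such as helicases, WD-repeat scaffolds and GTPases fold and cut it into the small and the large subunit. Growing and dividing cells make ribosomes at a high rate, and the transcription factor MYC is known to raise the expression of many of these genes. Hepatocytes in an adult liver seldom divide.

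Libraries held 15364450 to 20177401 reads in genes. *Terf2* was at 0.215, 0.305 and 0.229 CPM (a gene's reads for every 1000000 reads of the library, after TMM scaling) in senescent iMEFs, against 37.7, 39.2 and 38.0 CPM in control iMEFs, and at 4.91, 2.84, 2.87 and 4.67 CPM in senescent livers, against 11.3, 13.8, 13.8 and 11.6 CPM in control livers. *Cdkn1a*, which encodes p21, rose in both (log2 fold change 2.15 in iMEFs and 2.43 in livers, edgeR adjusted p = 8.9e-09 and 0.029). The 8 hepatocyte markers summed to 0 CPM in senescent iMEFs and 0 to 0.0505 CPM in control iMEFs, and to 91466 to 111444 CPM in senescent livers and 83489.8 to 95140.0 CPM in control livers. The 8 fibroblast markers summed to 6144 to 7202 CPM in senescent iMEFs, against 16402 to 17455 CPM in control iMEFs, with 7 of 8 lower. Their part in the results below was not tested. The 10 proliferation markers summed to 2645 to 2895 CPM in senescent iMEFs and 2705 to 2838 CPM in control iMEFs, with 1 higher and 1 lower. Senescent iMEF replicate 3 had 2.32% of its reads from the mitochondrial genome, and the other 5 iMEF libraries had 0.599% to 0.853%; without that replicate, 43 of the 51 genes rose and 1 fell. In bulk RNA, fewer cells of a type and less RNA per cell cannot be told apart, and CPM is a share of the library, so RNA per cell was not measured. The p-values measure the spread between these cultures or mice.

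Senescent iMEFs gave a larger share of their reads to the 51 ribosome biogenesis genes than control iMEFs. The set was chosen with earlier results of these data known, so the counts below describe it and are no test of it. Of the 51 genes, 42 were called, 40 that rose and 2 that fell, at an edgeR adjusted p under 0.05, where 39.8% of the 13561 genes tested were called, 18.6% up and 21.2% down. The median log2 fold change of the 51 genes was 0.41, against 0.00 for all genes tested, and 47 of 51 were positive. All 3 senescent libraries lay above all 3 control libraries for 43 genes and below them for 2, where 24.2% and 26.4% of all genes tested did so. Together the 51 genes took 0.869% to 0.945% of the reads in senescent iMEFs and 0.617% to 0.628% in control iMEFs.

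**Figure D1:**
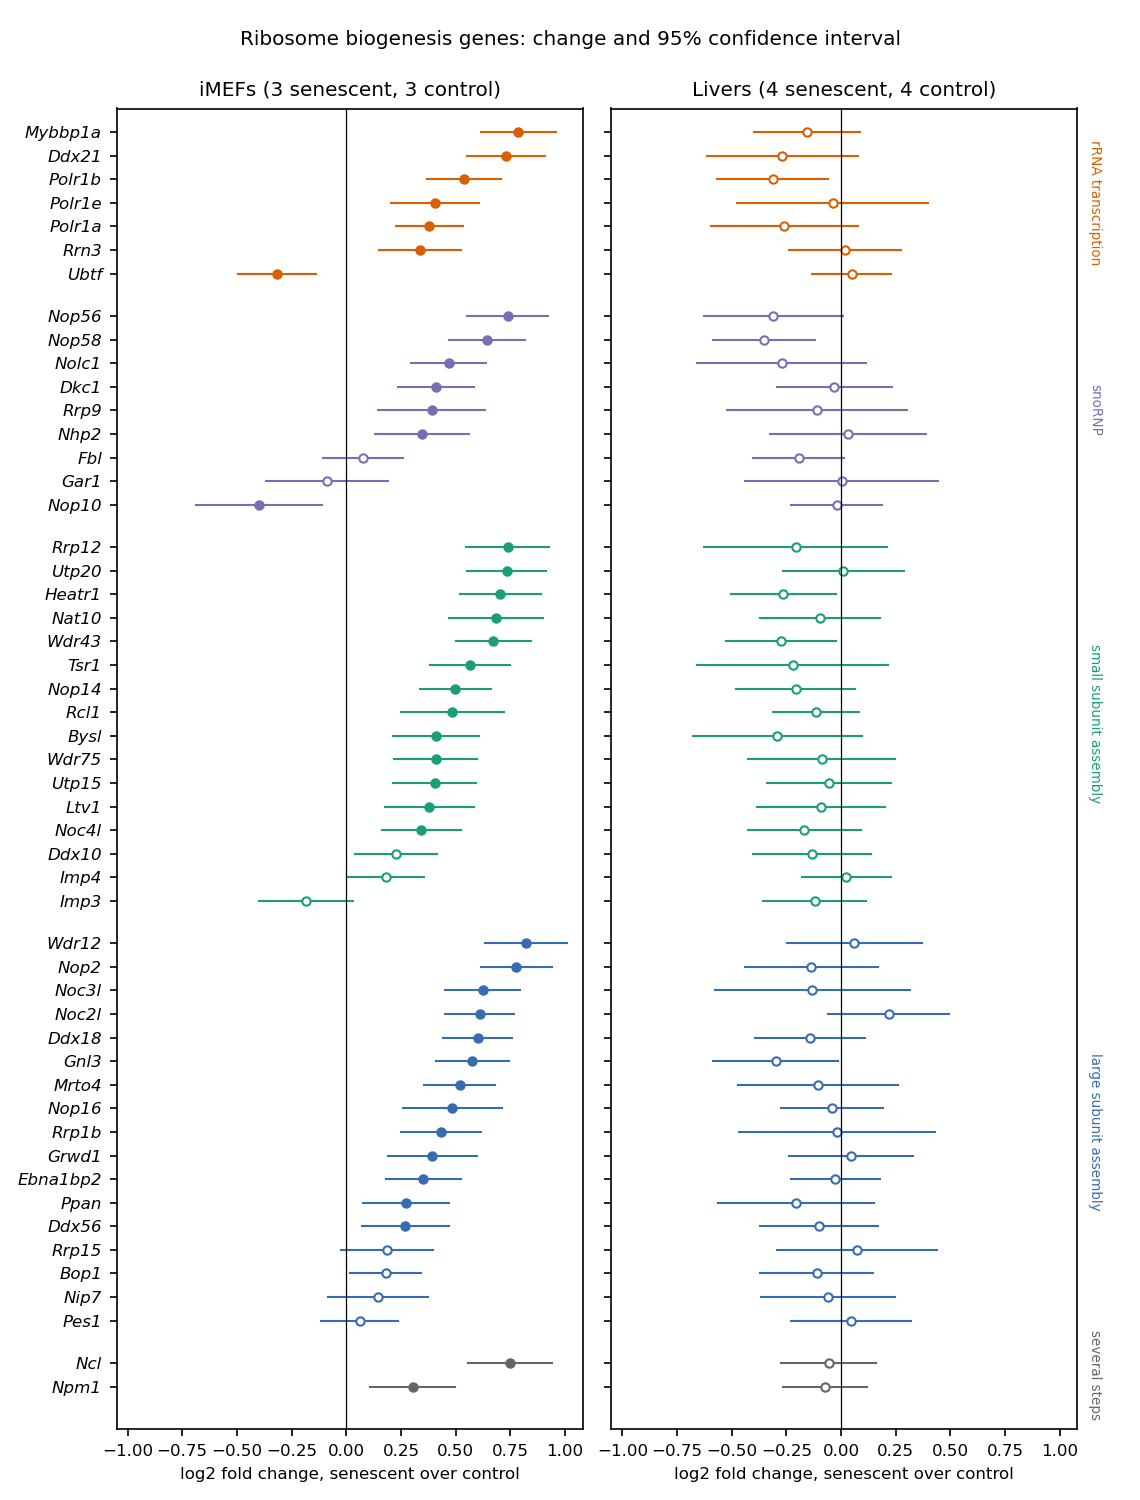
Log2 fold change, senescent over control (x axis), of each of the 51 genes (y axis, grouped by step and ordered by the change in iMEFs) in iMEFs on the left and livers on the right, with 95% confidence intervals. Filled points have an edgeR adjusted p under 0.05: 42 of 51 in iMEFs, from -0.40 for *Nop10* to 0.82 for *Wdr12*, and 0 of 51 in livers.

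The 7 genes of rRNA transcription all changed in iMEFs, 6 upward and 1 downward, with a median log2 fold change of 0.41. *Mybbp1a*, which encodes a nucleolar MYB-binding protein that takes part in rRNA transcription and processing, had 616, 617 and 583 CPM in senescent iMEFs, against 349, 356 and 347 CPM in control iMEFs. Its lowest senescent library lay well above its highest control library, a log2 fold change of 0.79 (95% CI 0.62 to 0.96, edgeR adjusted p = 9.1e-06). *Ddx21*, an RNA helicase of the nucleolus, had 469, 477 and 419.7 CPM in senescent iMEFs, against 278, 271 and 274 CPM in control iMEFs (log2 fold change 0.73, 95% CI 0.55 to 0.91, edgeR adjusted p = 2.3e-05). The groups did not overlap, and senescent replicate 3 was the lowest of its group.

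Of 8 genes for subunits of RNA polymerase I, not counting those it shares with RNA polymerase II, 4 rose, 1 fell and 3 did not pass the test, and the 3 that are members of the set rose. *Polr1b*, the second largest subunit, had 77.8, 79.7 and 78.5 CPM in senescent iMEFs, against 53.6, 53.9 and 54.7 CPM in control iMEFs (log2 fold change 0.54, 95% CI 0.37 to 0.71, edgeR adjusted p = 1.7e-04). The largest subunit, *Polr1a*, and *Polr1e*, an accessory subunit, rose by 0.38 and 0.41 on the log2 scale (edgeR adjusted p = 0.0012 and 0.0039). Outside the set, *Twistnb* rose by 0.36 and *Znrd1* fell and was at -0.36 (edgeR adjusted p = 0.011 and 0.020), and *Polr1c*, *Polr1d* and *Cd3eap* were at 0.12, -0.02 and -0.09 (edgeR adjusted p = 0.34, 0.88 and 0.64). *Rrn3*, the factor that brings the polymerase to the promoter, rose by 0.34 (edgeR adjusted p = 0.0085). It lost its call without control replicate 1 or control replicate 2 (edgeR adjusted p = 0.059 and 0.051).

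*Ubtf* ran the other way. It encodes UBF, the architectural factor that holds the rRNA gene promoter and the transcribed repeats open, and lies on the minus strand of chromosome 11 from 102304560 to 102319742 (mm10). *Ubtf* had 187, 173 and 186 CPM in senescent iMEFs, against 234, 239 and 207 CPM in control iMEFs, a fall (log2 fold change -0.32, 95% CI -0.49 to -0.14, edgeR adjusted p = 0.0087). Every senescent library was below every control library, with control replicate 3 the nearest. Without control replicate 2 the call was lost (log2 fold change -0.28, edgeR adjusted p = 0.056).

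The snoRNP genes split by subunit. Of 9, 6 rose, 1 fell and 2 did not pass the test, with a median log2 fold change of 0.39. *Nop56*, a core protein of the box C/D snoRNPs that methylate rRNA, had 296, 301 and 343 CPM in senescent iMEFs, against 196, 189 and 179 CPM in control iMEFs (log2 fold change 0.74, 95% CI 0.55 to 0.92, edgeR adjusted p = 2.9e-05). Its partner *Nop58* had 299, 309 and 275 CPM in senescent iMEFs, against 178, 191 and 197 CPM in control iMEFs (log2 fold change 0.64, 95% CI 0.47 to 0.82, edgeR adjusted p = 6.0e-05). Neither gene overlapped between the groups. *Fbl*, which encodes fibrillarin, the methyltransferase of the same particles, had 128, 115 and 107 CPM in senescent iMEFs and 108, 115 and 107 CPM in control iMEFs, with overlapping groups (log2 fold change 0.08, 95% CI -0.11 to 0.26, edgeR adjusted p = 0.5). Counted over all annotated transcripts, 8.12% of *Nop56* exon bases are shared with other genes, mostly snoRNA genes on the same strand. Some of its reads may be counted with them or left out.

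Box H/ACA snoRNPs, which turn uridines of rRNA into pseudouridines, have 4 core proteins, of whose genes 2 rose, 1 fell and 1 did not pass the test. *Dkc1*, the pseudouridine synthase dyskerin, and *Nhp2* rose by 0.41 and 0.35 on the log2 scale (edgeR adjusted p = 0.0014 and 0.015). *Gar1* had 36.7, 34.3 and 29.6 CPM in senescent iMEFs and 42.7, 33.9 and 30.5 CPM in control iMEFs, with overlapping groups (log2 fold change -0.09, 95% CI -0.37 to 0.19, edgeR adjusted p = 0.61). *Nop10*, on chromosome 2 from 112261926 to 112263269 on the plus strand (mm10), had 25.8, 19.7 and 17.8 CPM in senescent iMEFs, against 30.04, 26.4 and 27.3 CPM in control iMEFs, and fell (log2 fold change -0.40, 95% CI -0.69 to -0.11, edgeR adjusted p = 0.029). Senescent replicate 1 came close to control replicate 2, and the call was lost when any of 5 of the 6 libraries was left out (edgeR adjusted p = 0.052 to 0.10). *Nolc1*, a nucleolar chaperone of both kinds of snoRNP, had 267, 241 and 239.5 CPM in senescent iMEFs, against 188, 175 and 177 CPM in control iMEFs, without overlap (log2 fold change 0.47, 95% CI 0.30 to 0.64, edgeR adjusted p = 5.5e-04). *Rrp9*, a protein of the U3 snoRNP that guides the early cuts, rose by 0.39 on the log2 scale (edgeR adjusted p = 0.016). *Rrp9* and *Nhp2* lost their calls without control replicate 3 (edgeR adjusted p = 0.052 and 0.059), and *Nhp2* also without senescent replicate 2 (edgeR adjusted p = 0.058).

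The 16 small subunit factors had a median change of 0.45 on the log2 scale. Of these, 13 rose, 0 fell and 3, *Ddx10*, *Imp4* and *Imp3*, did not pass the edgeR test. For these and for the large subunit factors, 0 were lower at an unadjusted p under 0.05, and DESeq2 and limma-voom also called 0 lower. *Utp20*, a very large scaffold of the small subunit processome, had 238, 235 and 230.2 CPM in senescent iMEFs, against 138, 129.9 and 156 CPM in control iMEFs (log2 fold change 0.73, 95% CI 0.55 to 0.91, edgeR adjusted p = 2.6e-05). *Rrp12*, which acts in maturation and export of ribosomal subunits, had 76.5, 68.9 and 72.0 CPM in senescent iMEFs, against 46.4, 42.1 and 41.8 CPM in control iMEFs (log2 fold change 0.74, 95% CI 0.55 to 0.93, edgeR adjusted p = 3.6e-05). Both genes were higher in each senescent library than in any control library.

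*Wdr43* and *Heatr1* belong to UtpA, a scaffold that binds the nascent precursor and is needed for its transcription. *Wdr43* had 247, 266 and 229 CPM in senescent iMEFs, against 154, 155 and 156 CPM in control iMEFs (log2 fold change 0.67, 95% CI 0.50 to 0.84, edgeR adjusted p = 3.6e-05). *Heatr1* had 149, 161 and 141 CPM in senescent iMEFs, against 87.3, 88.7 and 101 CPM in control iMEFs (log2 fold change 0.70, 95% CI 0.52 to 0.89, edgeR adjusted p = 4.2e-05). The control libraries of *Wdr43* lay close together, and neither gene overlapped between groups. The other UtpA members measured, *Utp4*, *Nol11*, *Wdr75* and *Utp15*, rose by 0.61, 0.55, 0.41 and 0.40. *Nat10*, the acetyltransferase of 18S rRNA, rose by 0.68 (edgeR adjusted p = 1.7e-04). *Tsr1*, *Nop14*, *Rcl1*, *Bysl*, *Ltv1* and *Noc4l* rose by 0.34 to 0.57 on the log2 scale. For *Tsr1*, 32.3% of its exon bases lie on *Srr* on the opposite strand, and since the strand setting of the counts is not known here, reads of the pair may be mixed.

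*Imp3*, a subunit of the Mpp10 complex that joins U3 to the precursor, was the small subunit gene with the lowest fold change. It had 40.5, 38.9 and 33.2 CPM in senescent iMEFs and 43.7, 44.9 and 39.4 CPM in control iMEFs, and the groups overlapped (log2 fold change -0.18, 95% CI -0.40 to 0.03, edgeR adjusted p = 0.16). Its partner *Imp4* was at 0.18 and did not pass the test, although its senescent libraries, at 49.9, 48.1 and 48.9 CPM, were all above its control libraries, at 43.0, 42.4 and 44.0 CPM. The third subunit, *Mphosph10*, rose by 0.48 (edgeR adjusted p = 0.0014).

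The highest estimate of the 51 genes, that of *Wdr12*, was in the large subunit group. Of its 17 genes, 13 rose, 0 fell and 4, *Bop1*, *Rrp15*, *Nip7* and *Pes1*, did not pass the edgeR test. The median log2 fold change was 0.43 and all 17 values were positive. *Wdr12* had 84.8, 94.8 and 85.2 CPM in senescent iMEFs, against 48.7, 48.2 and 52.8 CPM in control iMEFs (log2 fold change 0.82, 95% CI 0.63 to 1.01, edgeR adjusted p = 1.4e-05). *Nop2*, a cytosine methyltransferase of 28S rRNA and a long-known proliferation antigen, had 189.7, 203 and 187 CPM in senescent iMEFs, against 118, 110.4 and 109.6 CPM in control iMEFs (log2 fold change 0.78, 95% CI 0.62 to 0.94, edgeR adjusted p = 6.4e-06). *Noc2l*, whose yeast counterpart takes part in transport of the large subunit precursor, had 167, 168 and 171 CPM in senescent iMEFs, against 107, 116 and 109 CPM in control iMEFs (log2 fold change 0.61, 95% CI 0.45 to 0.77, edgeR adjusted p = 3.8e-05). The groups did not overlap for any of these genes. Exons of *Noc2l* share 20.9% of their bases with *Samd11* on the opposite strand.

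WDR12 works with PES1 and BOP1 in the PeBoW complex, which is needed for processing of the 32S precursor, and the genes of its partners did not pass the test. *Pes1* had 113, 109.6 and 101 CPM in senescent iMEFs and 102, 110.2 and 97.7 CPM in control iMEFs, with overlapping groups (log2 fold change 0.06, 95% CI -0.11 to 0.24, edgeR adjusted p = 0.57). *Bop1* had 135, 131 and 126 CPM in senescent iMEFs and 116, 119.6 and 109.8 CPM in control iMEFs (log2 fold change 0.18, 95% CI 0.02 to 0.34, edgeR adjusted p = 0.072). Its senescent libraries were all above its control libraries, and its interval ended below the start of that of *Wdr12*. Among the others, *Noc3l*, *Ddx18*, *Gnl3*, *Mrto4*, *Nop16*, *Rrp1b*, *Grwd1*, *Ebna1bp2*, *Ppan* and *Ddx56* rose by 0.27 to 0.62 on the log2 scale. The calls for *Ppan* and *Ddx56* were each lost in 7 of 14 alternatives (highest edgeR adjusted p = 0.106 and 0.104), among them the replicate block and leaving out any 1 of the 3 control libraries. *Gnl3* encodes nucleostemin, a nucleolar GTPase, and *Ddx18* and *Ddx56* encode helicases.

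*Ncl* and *Npm1* encode nucleolin and nucleophosmin, abundant nucleolar proteins that act at several steps. *Ncl* had 1663, 1623 and 1533 CPM in senescent iMEFs, against 968, 946 and 953 CPM in control iMEFs (log2 fold change 0.75, 95% CI 0.56 to 0.94, edgeR adjusted p = 3.7e-05). *Npm1* had 1020.2, 1010.1 and 914 CPM in senescent iMEFs, against 811, 815 and 759.8 CPM in control iMEFs (log2 fold change 0.30, 95% CI 0.11 to 0.50, edgeR adjusted p = 0.017). The groups were apart for both. The call for *Npm1* was lost when any of 5 of the 6 libraries was left out (edgeR adjusted p = 0.056 to 0.077), and that for *Ncl* was kept in each of those fits.

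**Figure D2:**
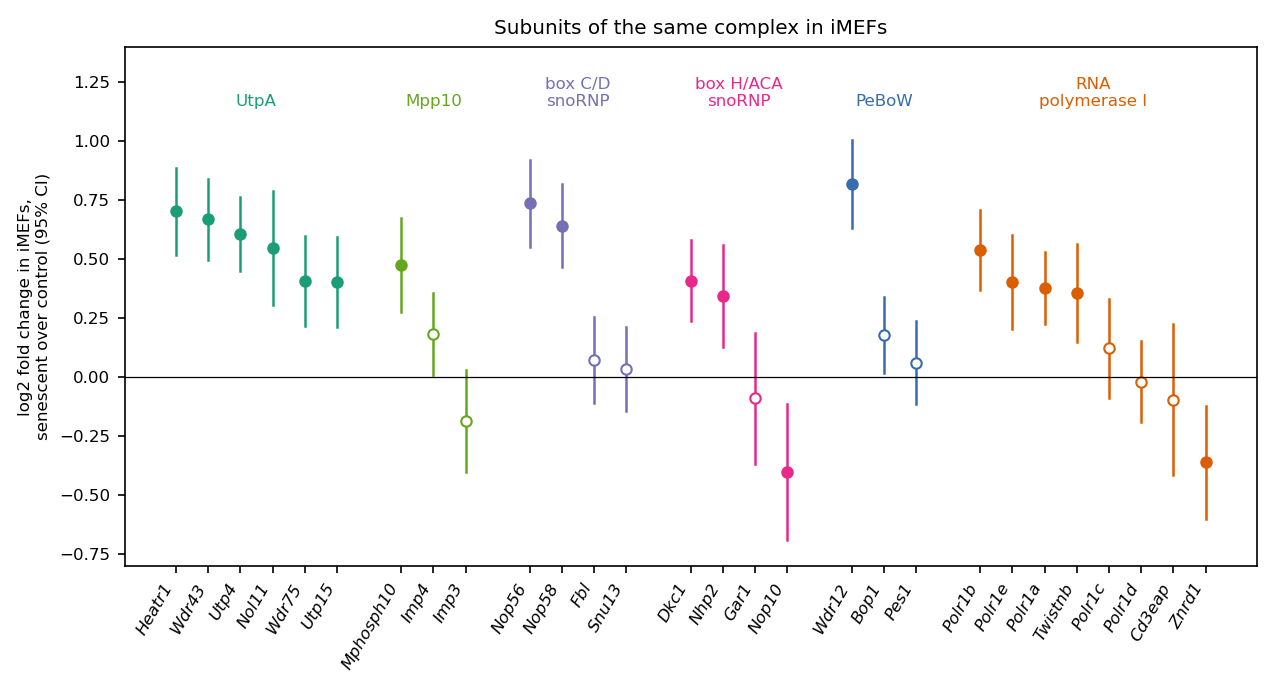
Log2 fold change in iMEFs, senescent over control (y axis), with 95% confidence interval, of the measured subunits of 6 complexes (x axis); filled points have an edgeR adjusted p under 0.05. All 6 UtpA genes rose and 4 of 8 RNA polymerase I genes did, while the intervals of *Imp3*, *Fbl*, *Snu13*, *Gar1*, *Nop10*, *Bop1*, *Pes1*, *Polr1c*, *Polr1d*, *Cd3eap* and *Znrd1* ended below the start of that of the highest gene in their complex.

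The complexes in this plot were chosen after the values were seen, and no test was made between genes. Within the Mpp10 complex, the box C/D and H/ACA particles, PeBoW and RNA polymerase I, the interval of the lowest gene ended below the start of that of the highest. *Snu13*, a core protein of the box C/D particles outside the set, was at 0.03 (edgeR adjusted p = 0.76). The H/ACA genes spanned -0.40 to 0.41 and the PeBoW genes 0.06 to 0.82. Several of the genes that did not rise have short transcripts. The 5 members with a principal transcript of up to 1200 bases, *Imp3*, *Mrto4*, *Nhp2*, *Nop10* and *Fbl*, had a median log2 fold change of 0.08, against 0.40 for the 24 members of 1200 to 3000 bases and 0.55 for the 22 longer ones. Over all protein-coding genes tested in iMEFs, those medians were -0.09, -0.03 and 0.03, and the part of transcript length was not tested.

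Genes outside the set also rose. Of 125 other ribosome biogenesis genes listed by the same steps, 122 were tested, and 61 rose and 6 fell, with a median log2 fold change of 0.25 in iMEFs. Of all genes tested in iMEFs, 18.6% rose and 21.2% fell. In rRNA transcription, 4 of 14 rose (28.6%) and 2 fell, with a median log2 fold change of 0.08. *Taf1d* and *Taf1a*, subunits of the promoter factor SL1, and *Nol11* rose by 0.97, 0.63 and 0.55. *Taf1b* and *Taf1c*, also listed subunits of SL1, did not pass the test. *Znrd1*, a small RNA polymerase I subunit, and *Nop53*, which also acts in large subunit processing, fell and were at -0.36 and -0.30. In small subunit assembly, 23 of 38 rose and 1 fell, with *Pwp2* at 0.77, *Utp4* at 0.61, *Wdr3* at 0.64 and *Abt1* at -0.33. In large subunit assembly, 24 of 41 rose and 1 fell, with *Nol8* at 0.95, *Tma16* at 0.89, *Gnl2* at 0.57 and *Nsa2* at -0.30. In RNA processing and snoRNP assembly, 10 of 29 rose and 2 fell, with *Pop1*, a subunit of RNase MRP, at 0.60, *Naf1* at 0.54, *Exosc2* at 0.49, *Mphosph6* at -0.53 and *Pih1d1* at -0.35.

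Ribosomal proteins are what these factors assemble on rRNA. Of 78 genes for cytosolic ribosomal proteins, 18 rose in iMEFs (23.1%, where 18.6% of all genes tested did). Another 6 fell, where 21.2% of all genes tested did, and the median log2 fold change was 0.16. Many of these genes have processed pseudogenes that can take part of their reads. Of 11 snoRNA host genes tested, 8 rose and 1, *Snhg18*, fell, with a median of 0.89. *Snhg6* and *Gas5*, host genes whose introns hold snoRNAs, rose by 1.37 and 0.89. *Myc* had 175, 158 and 172 CPM in senescent iMEFs, against 62.7, 56.5 and 63.8 CPM in control iMEFs, and rose (log2 fold change 1.46, 95% CI 1.28 to 1.64, edgeR adjusted p = 7.7e-08). Its part in the change of the other genes was not tested.

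MYC binds the palindrome CACGTG, and the promoters of the members were searched for it. RefSeq (GRCm38.p6) gave a window of 300 bases, from 250 before to 50 after the first-listed start, for 47 of the 51 members, not matching *Rrp12*, *Npm1*, *Bop1* and *Fbl*. The motif, which reads the same on both strands, was in the windows of 10 of 47 members (21.3%) and of 7.24% of all 27025 windows. In the 250 bases before the start alone it was in 3 of 47, where 6.05% of all windows had it. Of 102 windows of other biogenesis genes, 19 held it (18.6%). It was 1 of 13 patterns counted, chosen after the values were seen, and the looser pattern CACGNG, which leaves 1 base free and contains it, was in 33 of 47 members and 27.7% of all windows. The member windows had a median GC content of 57.3%, against 52.7% for all windows, and the part of base composition was not tested. Of the 10 genes with CACGTG, 8 rose in iMEFs, with a median log2 fold change of 0.48, and of the 37 without it 30 rose, with a median of 0.41. The variant CACGCG was in 16 of 47 members and 9.36% of all windows. The pattern CCGGAAGT, the core of ETS factor sites, was in 13 of 47 members and 4.00% of all windows, and TATAAA in 3 of 47 and 14.2%.

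The upstream stretch of *Nop2* is shown because *Nop2* had the smallest adjusted p of the 51 genes in iMEFs and holds the motif before its start. It covers chr6:125131633-125131882 (GRCm38.p6, plus strand), is written 5′ to 3′ and ends at the base before the RefSeq start, with CACGTG in capitals.
Nop2: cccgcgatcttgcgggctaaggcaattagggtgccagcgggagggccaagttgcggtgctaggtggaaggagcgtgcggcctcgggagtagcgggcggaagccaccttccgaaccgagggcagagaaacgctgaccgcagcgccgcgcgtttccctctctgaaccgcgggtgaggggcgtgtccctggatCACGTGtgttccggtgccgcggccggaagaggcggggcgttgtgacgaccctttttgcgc

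The other 9 genes with the motif are shown as 30 bases around it, on the strand of the gene and 5′ to 3′, to compare its neighbouring bases; *Rrn3* holds it at 2 places. The motif is in capitals and coordinates are GRCm38.p6. In *Imp4* it begins 121 bases before the start and in *Rrn3* 215 and 48 bases before. In the rest it lies within the first 50 transcribed bases, beginning at base 3 in *Pes1* and at base 41 in *Mybbp1a*.
Grwd1, chr7:45830740-45830769, minus strand: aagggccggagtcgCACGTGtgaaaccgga
Imp4, chr1:34439696-34439725, plus strand: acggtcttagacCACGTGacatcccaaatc
Ltv1, chr10:13193092-13193121, minus strand: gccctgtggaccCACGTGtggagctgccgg
Mybbp1a, chr11:72441347-72441376, plus strand: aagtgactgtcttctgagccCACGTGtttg
Pes1, chr11:3963965-3963994, plus strand: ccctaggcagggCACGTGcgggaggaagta
Rrn3, chr16:13780472-13780501, plus strand: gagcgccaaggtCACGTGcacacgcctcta
Rrn3, chr16:13780639-13780668, plus strand: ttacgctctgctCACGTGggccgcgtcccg
Tsr1, chr11:74898092-74898121, plus strand: tcacttggtgcaCACGTGgactgcagaatg
Utp20, chr10:88826765-88826794, minus strand: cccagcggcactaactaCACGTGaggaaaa
Wdr43, chr17:71616220-71616249, plus strand: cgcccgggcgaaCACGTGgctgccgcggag
A match is a description of the letters and not evidence of binding. *Mybbp1a*, *Utp20* and *Wdr43*, which hold the motif, rose by 0.79, 0.73 and 0.67, and *Pes1* and *Imp4*, which also hold it, did not pass the test. *Wdr12*, *Ncl* and *Nop56*, whose windows lack it, rose by 0.82, 0.75 and 0.74.

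**Figure D3:**
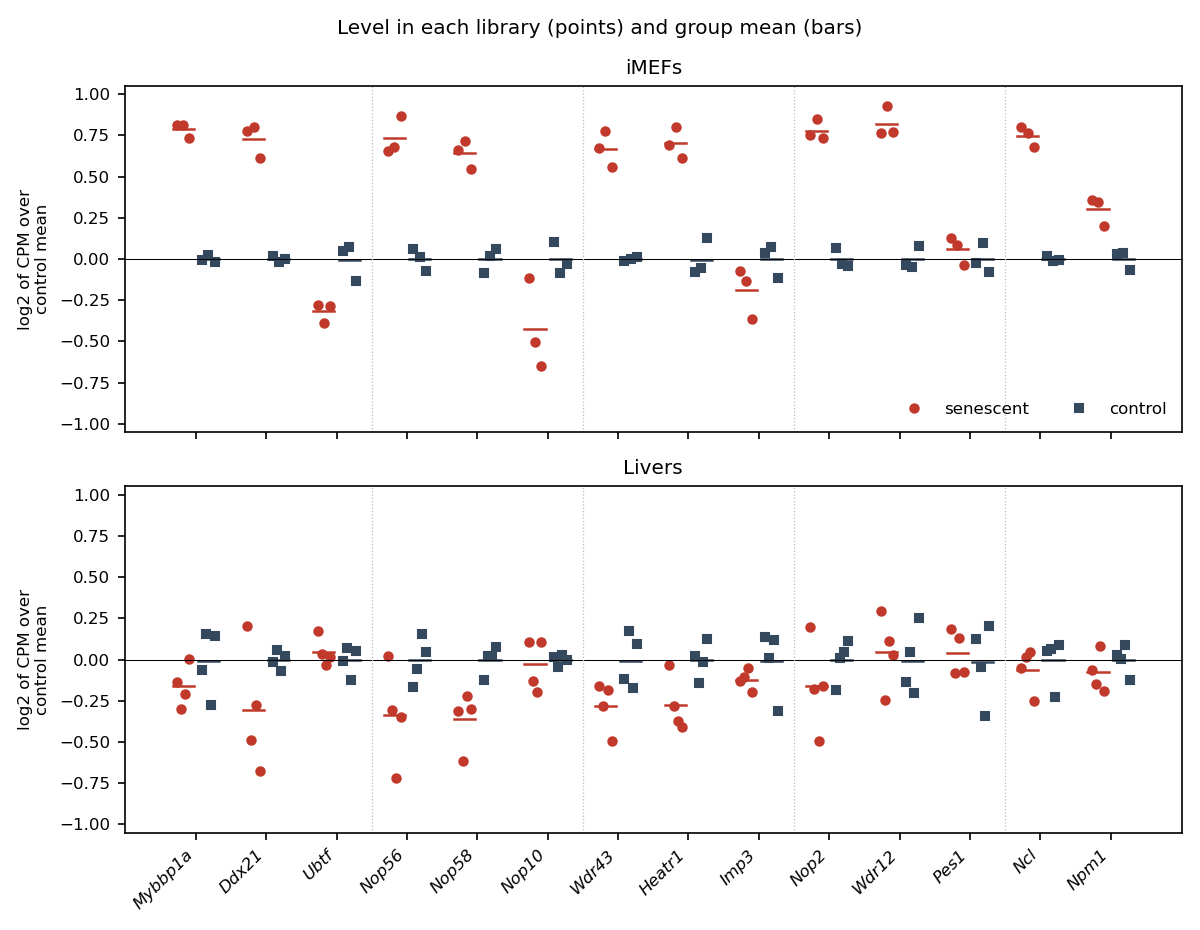
Level of 14 genes in each library as log2 of CPM over the mean of the control libraries of the same tissue (y axis), senescent as red circles left of control as dark squares, with bars at the means of the plotted values; iMEFs above, livers below. The red and dark points are apart in iMEFs for all genes shown except *Imp3* and *Pes1*, with *Ubtf* and *Nop10* below their controls, and overlap in livers for all except *Nop58*.

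No such rise was called in livers. Of the 51 genes, 0 were called in either direction by edgeR, where 0.343% of the 14270 genes tested were called (0.308% up and 0.035% down), and DESeq2 and limma-voom also called 0. At an unadjusted p under 0.05, 0 were higher and 5 were lower, and the share of all genes under that p is not given here. The median log2 fold change was -0.10, against 0.00 for all genes tested, and 11 of 51 were positive. All 4 senescent livers lay below all 4 control livers for 1 gene and above them for 0, where 1.96% and 2.55% of all genes tested did so. The share of reads was 0.131% to 0.149% in senescent livers and 0.140% to 0.156% in control livers, and these ranges overlap. The standard errors of the log2 fold changes had a median of 0.13 in livers and 0.085 in iMEFs. Smaller changes could therefore be called in iMEFs, and the adjustment also differed, as 39.8% of genes tested were called in iMEFs. An unadjusted edgeR p of 0.0099 (*Nop10*) became an adjusted p of 0.029 in iMEFs. In livers a smaller unadjusted edgeR p of 0.0065 (*Nop58*) became 0.41.

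*Nop58* was the gene without overlap, with 19.5, 15.8, 20.7 and 19.6 CPM in senescent livers, against 22.2, 24.5, 24.5 and 25.5 CPM in control livers. Its log2 fold change was -0.35 (95% CI -0.59 to -0.12) and its edgeR adjusted p was 0.41. *Polr1b* had 19.5, 15.7, 15.8 and 17.4 CPM in senescent livers and 19.3, 20.3, 20.7 and 24.8 CPM in control livers (log2 fold change -0.31, 95% CI -0.57 to -0.06, edgeR adjusted p = 0.55). Senescent replicate 1 lay just above its lowest control liver, and the other 3 senescent livers lay below it. *Wdr43* had 23.0, 21.1, 22.5 and 18.2 CPM in senescent livers and 23.7, 28.9, 22.7 and 27.4 CPM in control livers (log2 fold change -0.27, 95% CI -0.52 to -0.02, edgeR adjusted p = 0.61). *Heatr1* had 25.0, 21.1, 19.7 and 19.3 CPM in senescent livers and 25.9, 23.2, 25.3 and 27.9 CPM in control livers (log2 fold change -0.26, 95% CI -0.50 to -0.02, edgeR adjusted p = 0.61). For both the 2 groups overlapped by 1 senescent liver.

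By step, the liver medians were -0.15 for rRNA transcription, -0.11 for snoRNPs, -0.13 for small subunit assembly and -0.06 for large subunit assembly. *Noc2l* had the highest value, 0.22 (95% CI -0.06 to 0.50), and *Ubtf* and *Nop10* were at 0.05 and -0.02. Senescent replicate 1 lay within the range of the control livers, and the other 3 senescent livers lay below it. The median over the 51 genes of the log2 level relative to the control mean was 0.03 in senescent replicate 1 and -0.19 to -0.13 in the other 3 senescent livers, against -0.06 to 0.09 in control livers. Without senescent replicate 1 the median log2 fold change was -0.14 and 11 genes were lower at an unadjusted p under 0.05, with 0 called. Leaving out any other single liver library gave 2 to 5 genes lower at that p, and 1 higher without senescent replicate 3. The share of all genes tested under that p is not given here. The 8 macrophage markers summed to 483 to 572 CPM in senescent livers and 255 to 572 CPM in control livers, with 8 of 8 positive and 0 called by edgeR (2 higher at an unadjusted p under 0.05), and their part was not tested.

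Outside the set, 0 of the 122 other biogenesis genes and 0 of the 78 ribosomal protein genes were called by edgeR in livers, with medians of -0.03 and 0.05. At an unadjusted p under 0.05, 2 of the other biogenesis genes were higher and 9 lower. Of the ribosomal protein genes, 5 were higher and 0 lower, and the share of all genes under that p is not given here. Of the 11 snoRNA host genes, *Snhg15* rose (log2 fold change 1.52 ± 0.22, SE, edgeR adjusted p = 0.0072). *Myc* had 6.88, 7.40, 28.0 and 5.56 CPM in senescent livers, against 4.96, 5.28, 5.96 and 5.77 CPM in control livers (log2 fold change 1.10, 95% CI 0.14 to 2.07, edgeR adjusted p = 0.58). Senescent replicate 3 was far above the rest.

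**Figure D4:**
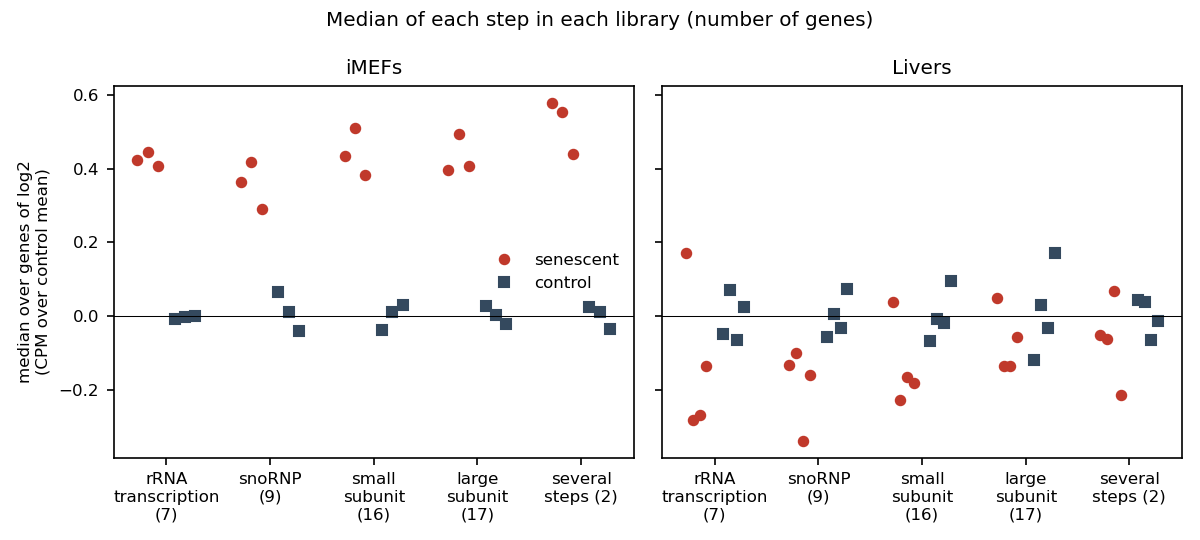
Median over the genes of each step of log2 CPM relative to the control mean (y axis) in each library, senescent as red circles left of control as dark squares, in iMEFs (left) and livers (right). In iMEFs all senescent medians, 0.29 to 0.58, are above all control medians; in livers senescent replicate 1, the leftmost red point, is the highest senescent library in 3 of the 5 groups of genes.

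The change in iMEFs was tested against the change in livers in 1 fit over the 14 libraries, as the iMEF log2 fold change minus the liver log2 fold change. The difference was positive and called for 29 of 51 genes and negative and called for 1, *Ubtf*, where 7.41% and 9.69% of the 11693 genes tested were called. Its median was 0.50, against 0.00 for all genes tested. All 29 were among the 40 genes that rose in iMEFs. By step the 29 were 4 of 7 genes of rRNA transcription, 4 of 9 of snoRNPs, 11 of 16 of small subunit assembly, 8 of 17 of large subunit assembly and both genes of several steps. This count moved with single libraries and was 18 without control iMEF replicate 1 and 18 without control iMEF replicate 2, with 17 genes called in every alternative.

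The smallest p-values belonged to *Nop58*, *Wdr43*, *Heatr1* and *Mybbp1a*. *Nop58* rose by 0.64 in iMEFs and was at -0.35 in livers, a difference of 0.998 ± 0.14 (SE, edgeR adjusted p = 9.1e-05). *Wdr43* and *Heatr1* differed by 0.95 ± 0.14 and 0.97 ± 0.15 (SE, edgeR adjusted p = 2.6e-04 for each). *Mybbp1a* had 55.6, 49.7, 52.9 and 61.3 CPM in senescent livers and 58.4, 68.0, 50.5 and 67.4 CPM in control livers, with overlapping groups, and its difference was 0.94 ± 0.14 (SE, edgeR adjusted p = 2.7e-04). *Ubtf* differed in the other direction, by -0.36 ± 0.12 (SE, edgeR adjusted p = 0.042). That call was lost in 13 of 22 alternatives (highest edgeR adjusted p = 0.118). Of the other lists, 30 of 122 biogenesis genes and 3 of 78 ribosomal protein genes had a positive difference called, and 0 and 5 a negative one. Of all genes tested, 7.41% had a positive and 9.69% a negative one called. At an unadjusted p under 0.05, 49 of the biogenesis genes had a positive difference and 4 a negative one. The share of all genes under that p is not given here.

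The tissues also differed in level before any deletion. Control iMEFs had a median of 4.34 times the CPM of control livers over the 51 genes, with 49 of 51 ratios above 1. *Rcl1*, an endonuclease-like factor of 18S processing, was the exception with the largest gap, at 48.7 ± 0.84 CPM in control iMEFs and 106 ± 10.9 CPM in control livers (SD, n = 3 and 4). *Nop10* was also lower, at 27.9 ± 1.90 CPM in control iMEFs and 36.2 ± 0.804 CPM in control livers. *Ncl* was at 956 ± 11.3 CPM in control iMEFs and 167 ± 16.4 CPM in control livers. CPM was scaled within each tissue, and in livers secreted proteins such as albumin take a large share of the reads, so the ratio compares shares of unlike libraries and was not tested. Reads per member and library ranged between 310 and 30977 in iMEFs and 64 and 3204 in livers.

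**Figure D5:**
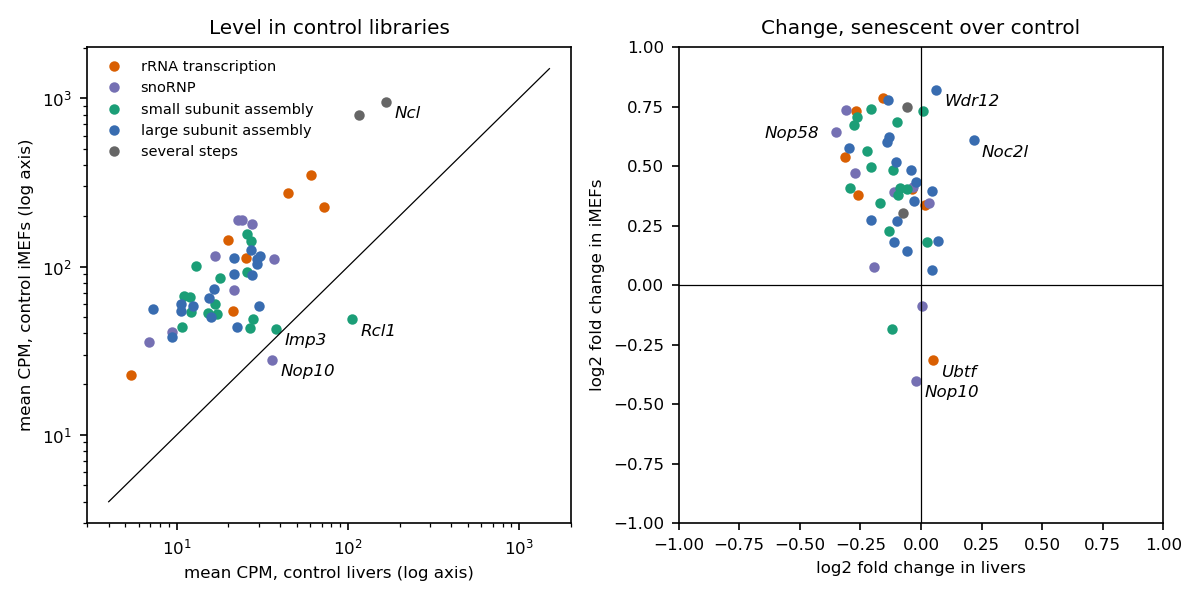
On the left, mean CPM of the 51 genes in control iMEFs (y axis) and control livers (x axis), both on log axes, with the line of equal level. On the right, log2 fold change, senescent over control, in iMEFs (y axis) and livers (x axis); most points lie above 0 in iMEFs and to the left of 0 in livers, with *Ubtf* and *Nop10* below 0 in iMEFs.

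Over the 51 genes, the log2 fold changes in iMEFs and in livers had a Pearson r of -0.34 and a Spearman rho of -0.37. This describes genes, which share their libraries and are not independent replicates. Of the 40 genes that rose in iMEFs, 34 had a negative value in livers, and 0 of these were called there. Most of the set was negative in livers, where 11 of all 51 genes were positive.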

How the data were processed

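RNA was sequenced from 6 iMEF and 8 liver libraries. The authors deposited raw counts, whole numbers of reads per gene, in 1 table per tissue. According to the submitters' notes, reads were aligned to mm10 with STAR and counted with featureCounts. Versions, strand setting and annotation release were not given in the sources used here. Normalized tables were also deposited and were not used. Each tissue was fitted with edgeR 4.0.16 (R 4.3.3) after filterByExpr and TMM scaling, with the quasi-likelihood test, a prior count of 2 and Benjamini-Hochberg adjustment over all genes tested at 0.05. The tissue difference was an interaction term in 1 fit over 14 libraries. Members and lists were chosen with earlier results of these data known.

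Named genes were, in each step, the 3 members with the smallest p in iMEFs, the member with the lowest fold change and any member that fell, with the 4 smallest p-values in livers and for the tissue difference. From each other biogenesis list came the 3 smallest p-values and any gene that fell. Other genes were chosen after their values were seen. Replicates of a group differed by more than sampling noise, so none was counted as a repeat. Alternatives were DESeq2 1.42.0, limma-voom (3.58.1), RLE, upper-quartile and total-read scaling, no filter, a replicate block, a threshold of 0.01 and leaving out each library. Exon overlaps and transcript lengths came from GENCODE M21 (GRCm38, which is mm10), where all 51 members were found with the same symbol, and promoter windows from RefSeq. Tables and figures were made with Python 3.11.15, pandas 2.3.3, numpy 2.4.6, scipy 1.17.1 and matplotlib 3.10.9.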

Additional observations from a re-analysis of the deposited data

Results flagged for a closer look

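The change with senescence differed between iMEFs and livers for 30 of the 51 members, by the interaction term of edgeR's quasi-likelihood test, 29 with a larger log2 fold change in iMEFs and 1, *Ubtf*, with a smaller one. Tissue, time after deletion, SV40 large T and Cre delivery differ together between iMEFs and livers, so their parts cannot be told apart. The call for *Ubtf* was lost in 13 of 22 alternatives (highest edgeR adjusted p = 0.118). The differences (iMEF minus liver, log2 scale) with the smallest p-values were 0.998 for *Nop58*, 0.95 for *Wdr43*, 0.97 for *Heatr1* and 0.94 for *Mybbp1a*. Each of these was higher in 3 of 3 senescent iMEF libraries than in any control iMEF library. Each also had a negative estimate in livers that did not pass the test. A choice by the p-value of the difference favours such genes, so these values are no separate support. In iMEFs 43 of the 51 members were apart in this way, and in livers 11 of 51 had a positive estimate.

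Among senescent livers, *Myc* in replicate 3 was at 28.0 CPM, against 5.56 to 7.40 CPM in the other 3. Its gap to the nearest library was 0.918 of the range of the group, above Dixon's 95% critical value. Chance gives such a gap in about 1 of 20 groups, and 14 groups of 4 livers were checked. The members' median log2 level relative to the control mean was -0.19 in the same library, the lowest of the 4 senescent livers.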

How the results depend on the processing

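In iMEFs, 34 of the 40 members that rose were called in every alternative, and all 40 kept their sign. The count that rose was 35 to 43 when 1 library was left out (all calls 36 to 44), and the count that fell was 0 to 2, and 1 at a threshold of 0.01. The median log2 fold change was 0.46 with total-read scaling, and 0.37 to 0.45 when 1 library was left out. In livers 0 members were called in each alternative. The liver median was -0.14 to -0.07 when 1 library was left out, and -0.07 with upper-quartile scaling, where 16 of 51 were positive. For the tissue difference, 17 of the 29 positive calls held in every alternative, and the cause of the losses was not tested. At a threshold of 0.01, 17 were called, all positive and 0 negative. Leaving out 1 library gave 18 to 28 calls (18 to 28 positive and 0 to 1 negative), and the negative call for *Ubtf* also went to 0 with total-read scaling, without the filter and with the replicate block. Same-numbered senescent and control libraries had correlations of -0.17 to -0.01 in iMEFs and -0.08 to 0.24 in livers. The numbers were not taken as pairs in the main fits, and such correlations cannot exclude a pairing. With the replicate block 38 members rose and 2 fell in iMEFs, 0 changed in livers, and 24 differed between tissues. Members had 64 to 3204 reads per library in livers and 310 to 30977 in iMEFs, and their log2 fold changes had a median standard error of 0.13 in livers, 0.085 in iMEFs and 0.16 for the tissue difference. The parts of read number and of the spread between mice or cultures in these errors were not tested.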
